A study of Mus musculus with 10 samples.

Results

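miR-708 is a microRNA (miRNA) made from 1 hairpin in an intron of the teneurin gene Tenm4, and both of its mature strands were followed here: mmu-miR-708-5p and mmu-miR-708-3p, written below as miR-708-5p and miR-708-3p. They are 2 of 1139 mature mouse miRNAs in the count table, and both were among the 457 that passed the filter on low counts. They were selected on measured values: the 5p strand stood near the bottom of the list of differences between the genotypes in these same libraries. The levels, arm ratio and group differences of the 2 strands are therefore described without a test. Small RNA was sequenced from hearts of male C57Bl6N mice, frozen 1 week after transverse aortic constriction (TAC), an operation that narrows the aorta and loads the left ventricle with pressure. The 5 control libraries are labelled floxed control, meaning that recombination sites flank a gene that is still whole. The 5 knockout libraries are labelled CITED4 knockout. CITED4 does not bind DNA itself and acts on transcription through the coactivators CBP and p300. All mice of both groups had the operation. The labels do not give the age, the Cre driver or other means of deletion, or whether a library stands for 1 animal.

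A miRNA hairpin is cut into a duplex of 2 strands, named 5p and 3p after their side of the hairpin. One strand is usually kept in an Argonaute protein, and its seed, bases 2 to 8 from the 5′ end, pairs with target messenger RNAs. Tenm4 (also called Odz4) encodes a teneurin, a transmembrane protein of cell contacts. miR-708 is known to be induced together with its host gene by CHOP, a transcription factor of the endoplasmic reticulum stress response, and has been linked to calcium signalling and to proliferation of cardiomyocytes.

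The sequences below, from RefSeq on GRCm38.p6, show the 2 strands and those of miR-28a, the closest relative with a sequence in that table. Capitals mark the seed.
miR-708-5p: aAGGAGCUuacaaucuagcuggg
miR-28a-5p: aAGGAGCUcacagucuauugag
miR-708-3p: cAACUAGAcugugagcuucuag
miR-28a-3p: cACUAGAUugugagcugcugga
miR-708-5p and miR-28a-5p have the same seed, AGGAGCU. Aligned without gaps from base 1, they are identical at 16 of 22 positions. The 6 differences, counted from the 5′ end with the miR-708-5p base first, are U9C, A13G, G18U, C19U, U20G and G21A, all outside the seed. The seed of miR-708-3p, AACUAGA, is shared with no other of the 1679 mature names in the RefSeq table. On GRCm38.p6 miR-708-5p lies on the plus strand at chr7:96249450-96249472 and miR-708-3p at chr7:96249496-96249517. The hairpin (chromosome 7, 96249424 to 96249532) lies in intron 1 of 7 of the 12 Tenm4 transcripts in GENCODE release M21 and outside the span of the other 5. It has the same orientation as the gene and starts 78178 bases after the annotated gene start.

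Library totals ran from 7526091 to 18369483 counts, and the group means were within the spread of the libraries (p = 0.24 by a two-sided exact permutation test). Levels are given as CPM, counts relative to a library total scaled by edgeR's TMM factor. The heart muscle markers fixed for the tissue check (miR-1a-3p, miR-133a-3p, miR-208a-3p, miR-208b-3p and miR-499-5p) were counted in every library and summed to between 220632 and 504094 CPM. Of the 8 markers of epithelium, liver and nerve, the neural miR-124-3p was at 0 counts in all 10 libraries, and the 8 summed to between 361 and 733 CPM.

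miR-708-5p, the more abundant strand, was a scarce miRNA in these hearts, at rank 269 of 457 by mean level. In controls its level was 8.93 CPM in replicate 1, 5.98 in replicate 2, 19.2 in replicate 3, 19.6 in replicate 4 and 24.8 in replicate 5. In knockouts it was 7.18, 3.73, 10.1, 10.3 and 7.07 CPM in replicates 1 to 5. Control replicates 3, 4 and 5 were the highest of all 10 libraries, while control replicates 1 and 2 lay inside the knockout range, so the groups overlapped. The raw counts behind these levels were 68 to 205 reads in controls and 38 to 160 in knockouts. For control replicate 3 the 95% Poisson interval ran from 16.4 to 22.4 CPM, and for knockout replicate 4, the highest knockout, from 8.41 to 12.4 CPM. These intervals cover counting error only. The step between the 3 highest libraries and the next one was therefore larger than counting error.

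miR-708-3p, the rarer strand, was at rank 382 of 457. In controls its level was 1.65 CPM in replicate 1, 0.62 in replicate 2, 5.38 in replicate 3, 5.06 in replicate 4 and 4.97 in replicate 5. In knockouts it was 1.81, 0.79, 1.45, 2.47 and 1.65 CPM in replicates 1 to 5. The same 3 controls were again the highest of all libraries, and control replicate 2 was the lowest of all. Counts were small, from 7 to 46 reads in controls and from 8 to 30 in knockouts. The interval for control replicate 5 was 3.57 to 6.74 CPM and that for knockout replicate 4, the next library in order, was 1.61 to 3.62 CPM. The ends of these 2 intervals overlap slightly.

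**Figure D1:**
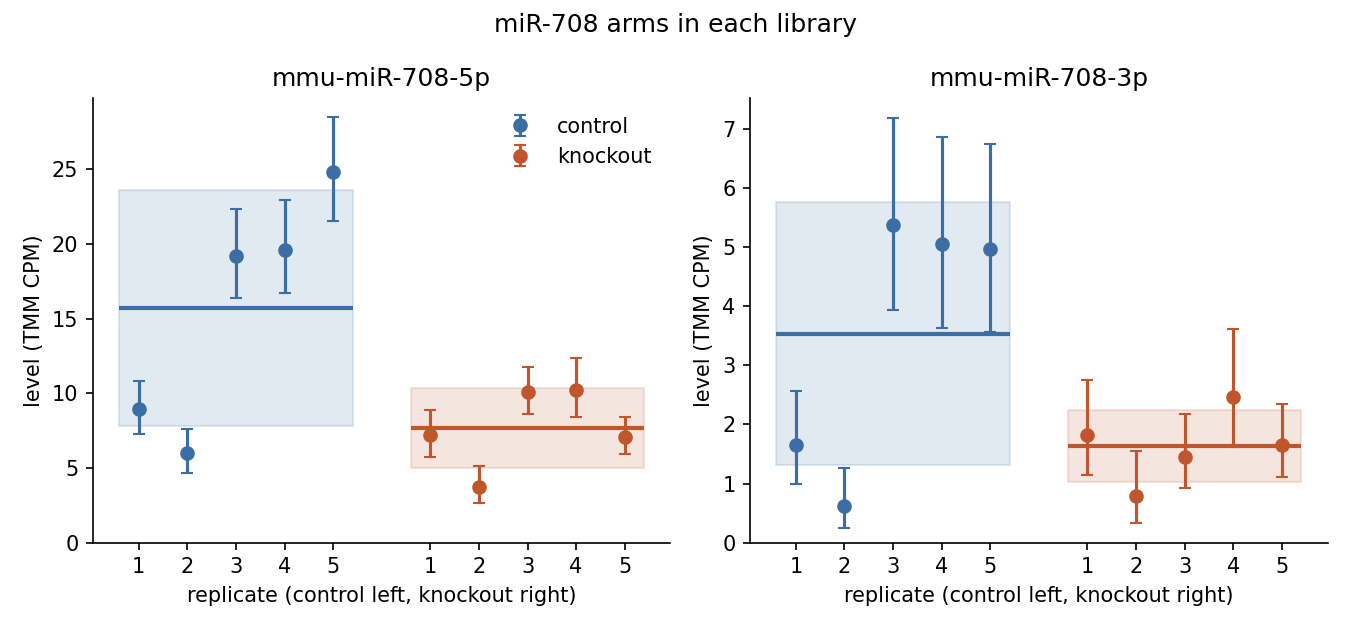
Level of miR-708-5p (left panel) and miR-708-3p (right panel) in TMM CPM for each library, by replicate number. Points carry 95% Poisson intervals, lines are group means and bands are ± 1 SD (n = 5 per group). Control replicates 3, 4 and 5 lie above the other 7 libraries for both strands.

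The 5 controls had a mean miR-708-5p level of 15.7 ± 7.93 CPM, and the 5 knockouts one of 7.67 ± 2.68 CPM (SD). That is a log2 fold change of -1.02 ± 0.38 (SE), or 0.491 of the control level, with a 95% interval from 0.279 to 0.866. Neither this interval nor that of miR-708-3p allows for the selection by this contrast, and neither is read as a test. For miR-708-3p the control mean was 3.54 ± 2.23 CPM and the knockout mean 1.63 ± 0.61 CPM (SD, n = 5 for each). Its log2 fold change was -1.09 ± 0.51 (SE), or 0.470 of the control level, with an interval from 0.218 to 1.02. For both strands, each of the 5 knockouts had a level under the mean of the controls, and so did control replicates 1 and 2. The control median, 19.2 CPM for the 5p strand and 4.97 CPM for the 3p strand, was above the control mean, which control replicates 1 and 2 lower. Over all miRNAs the median log2 fold change was 0.03.

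Ranked from the lowest log2 fold change, miR-708-3p was number 3 and miR-708-5p number 4, in a set of 4 miRNAs at or below -1 (0.875% of 457). Just inside that level was miR-708-5p itself, and just outside it miR-700-3p at -0.97. In edgeR's quasi-likelihood test across all miRNAs, 0 of 457 (0%) passed an adjusted p of 0.05, and 29 (6.35%) had an unadjusted p under 0.05. DESeq2 also called 0 of 1105, with 45 (4.07%) at an unadjusted p under 0.05, and limma 0 of 457, with 22 (4.81%). These rates are background for the whole table, and nothing is read from them for the 2 strands, since this contrast chose them.

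The 2 strands come from 1 precursor and are not separate measurements of a genotype difference. Of 136 hairpins with both strands tested, 48 had both strands with a negative log2 fold change, and miR-708 was the only one with both at or below -1. Its place among the hairpins is a description only, since miR-708 was chosen for its low value in this contrast. The hairpin with the next lowest 5p strand was miR-101a, at -0.73 for 5p and -0.51 for 3p.

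**Figure D2:**
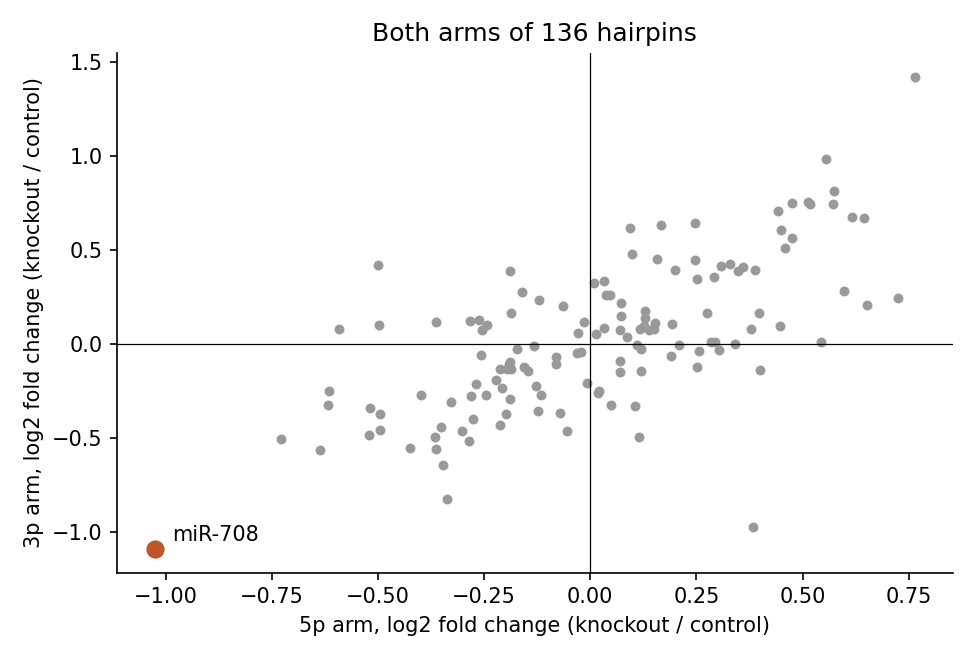
Log2 fold change of the 3p strand against that of the 5p strand for 136 hairpins, knockout over control, from edgeR. Each point is 1 hairpin, and miR-708, labelled, lies at -1.02 and -1.09, at the lower left of the other points.

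The balance between the 2 strands differed between the groups by less than the spread of the libraries. The 5p strand made up 84.4%, 90.7%, 78.1%, 79.5% and 83.3% of miR-708 reads in control replicates 1 to 5. In knockout replicates 1 to 5 it made up 79.8%, 82.6%, 87.4%, 80.6% and 81.1%. Control replicates 3 and 4 had the 2 lowest shares of the 10 libraries, and control replicate 5 lay within the range of the other 7, at 79.8% to 90.7%. Pooled over libraries, the 5p share was 81.9% in controls (exact 95% binomial interval 79.2% to 84.5%, 853 reads) and 82.7% in knockouts (79.5% to 85.6%, 631 reads). The mean log2 ratio of 5p to 3p was 2.33 ± 0.54 in controls and 2.21 ± 0.33 in knockouts (SD, n = 5 each). Their difference was -0.13, with a 95% interval from -0.78 to 0.52, an interval that holds moderate changes of the ratio in either direction. Its sign turned to 0.08 with pooled counts and to 0.09 without control replicate 2, a library with 75 reads of both strands.

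**Figure D3:**
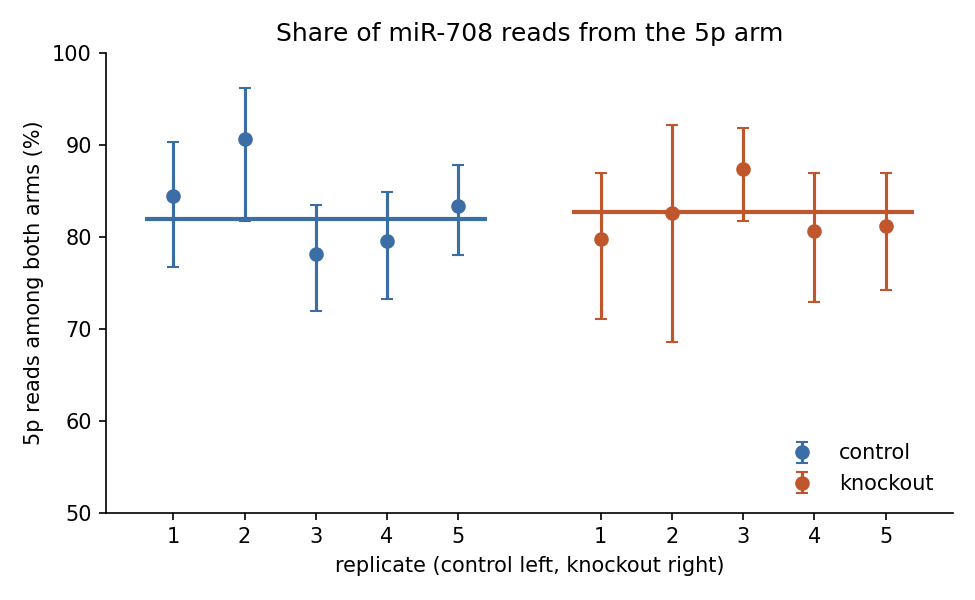
Share of miR-708 reads that came from the 5p strand in each library (percent of both strands, axis from 50 to 100), by replicate number. Points carry exact 95% binomial intervals and lines are the pooled shares, 81.9% in controls and 82.7% in knockouts.

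Among the 136 hairpins, the arm balance of miR-708 was an ordinary one. Its 5p strand was the higher, as in 74 hairpins, and 92 hairpins had a more unequal pair of strands. The log2 ratio varied between libraries of a group with an SD of 0.44, against a median of 0.41 over hairpins, and 58 hairpins had a larger SD. The difference in ratio between the groups was larger in size in 83 hairpins. In the 5 knockouts the 5p share varied 1.05 times as much as binomial counting error alone gives, and in the 5 controls 1.90 times.

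The spread of the level was wide in controls for both strands, and less so in knockouts. In controls the coefficient of variation of miR-708-5p was 50.5%, against a median of 25.6% over the 111 miRNAs whose mean was within a factor of 2 of its own, at rank 12 from the highest. In knockouts it was 34.9%, against a median of 22.6%, at rank 21. For miR-708-3p it was 63.1% in controls, at rank 15 of 99, and 37.3% in knockouts, near the median of 35.7%. Counts of miR-708-5p varied between libraries 42.2 times as much as Poisson error alone gives in controls and 10.6 times in knockouts. For miR-708-3p these ratios were 15.4 and 2.39. edgeR's biological coefficient of variation was 0.41 for miR-708-5p and 0.53 for miR-708-3p, against 0.30 and 0.38 on the trend at their abundance.

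Because control replicates 3, 4 and 5 stand apart, the strands were compared across the 7 other libraries only. These libraries were set apart by the levels themselves, so the correlations are given as a description with no test. The 2 log2 levels had a Pearson r of 0.75 and a Spearman rho of 0.71. Without the 2 libraries farthest from the median level of miR-708-5p, r was 0.56 over 5 libraries. As deviations from group means within the 7, r was 0.83. The library total had an r of 0.37 with the 5p level, 0.16 with the 3p level and 0.18 with the log2 arm ratio over the same 7, with rho of 0.25, -0.14 and 0.32. Without the 2 libraries farthest from the median total, r was 0.51, -0.05 and 0.67.

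The 3 high controls were also the 3 highest libraries for 37 of the 457 miRNAs (8.10%) and the 3 lowest for 24 (5.25%). On the first principal component of all log2 levels, which held 44.8% of the variance, control replicates 3, 4 and 5 scored 7.66, 8.25 and 10.6. Knockout replicate 4, the knockout with the highest level of both strands, scored 5.62, and the other 6 libraries were between -9.31 and -0.71. With this component as a covariate the log2 fold change was -0.30 ± 0.24 (SE) for miR-708-5p and -0.16 ± 0.45 for miR-708-3p. The component was built from all 10 libraries, so it also takes up any part of a genotype difference that lies along it, and these cannot be told apart here.

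The sums of the fibroblast and erythroid marker lists moved with this split. The 4 fibroblast and mesenchymal miRNAs (all 4 in the table) summed to 40105, 46238 and 38600.3 CPM in control replicates 3, 4 and 5, to 108890 and 101515 CPM in control replicates 1 and 2, and to between 52492 and 132710 CPM in knockouts. Knockout replicate 4 had the lowest knockout value. The erythroid list (2 of its 3 members in the table) summed to 791, 1003 and 1105 CPM in the 3 high controls, to 279 and 430 CPM in control replicates 1 and 2, and to between 214 and 865 CPM in knockouts, with knockout replicate 4 highest. The sum of the heart muscle list, most of it miR-1a-3p, was 248847 CPM in control replicate 3 against 504094 and 470738 CPM in replicates 4 and 5. Within that list miR-133a-3p and miR-208a-3p were highest in the same 3 controls, at 1970, 1756 and 1861 CPM and at 932, 685 and 692 CPM, and knockout replicate 4 was the highest knockout for both, at 1469 and 571 CPM. miR-208b-3p of the same list was not, at 244, 155 and 143 CPM in control replicates 3, 4 and 5. In knockouts miR-208b-3p ran from 151 to 296 CPM, and its log2 fold change was 0.35. Of the 5 heart muscle members, 4 were lower on average in knockout, with a median log2 fold change of -0.34. In edgeR's test 0 of them passed, with 1 at an unadjusted p under 0.05. Over all 457 miRNAs 46.8% were lower, 0% passed and 6.35% had an unadjusted p under 0.05. The fibroblast list had 4 members higher and 0 lower (median 0.39), and the erythroid list 0 higher and 2 lower (median -0.49). In these 2 lists 0 passed, with 0 at an unadjusted p under 0.05. Summed levels of the other lists were 26220 to 35318 CPM in controls and 25223 to 34443 CPM in knockouts for the 2 endothelial miRNAs, 27826 to 33670 and 26124 to 32865 CPM for the 2 smooth muscle miRNAs, and 1562 to 1593 and 1386 to 1762 CPM for the 5 leukocyte miRNAs. Only miR-124-3p, among all markers in the table, was at 0 in every library. The part of the marker lists in the miR-708 difference was not tested. In RNA of whole hearts, fewer cells of a type and less miRNA per cell cannot be told apart.

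**Figure D4:**
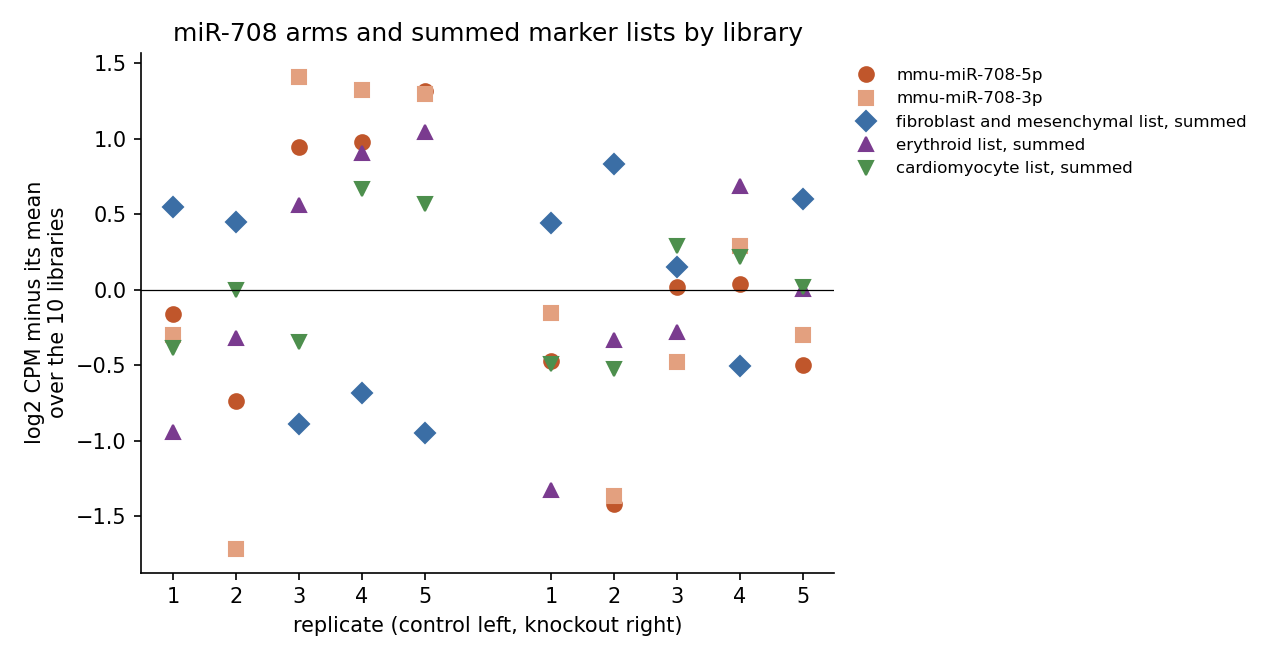
Log2 CPM of miR-708-5p, miR-708-3p and 3 summed marker lists in each library, each minus its own mean over the 10 libraries. In control replicates 3, 4 and 5 both miR-708 strands and the erythroid list lie above 0 and the fibroblast list below 0.

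The miRNAs most like the 2 strands were found by Pearson correlation of log2 CPM, as deviations from group means over 10 libraries, and are given as a description in which the 3 high controls take part. For miR-708-5p they were miR-30c-2-3p (r = 0.95), miR-29a-3p (0.95), miR-708-3p (0.93), miR-133b-3p (0.92) and miR-378a-5p (0.92). Within the 7 other libraries r was taken on log2 CPM without removing group means, and was 0.87, 0.88, 0.75, 0.82 and 0.84. For miR-708-3p the most alike were miR-582-5p (0.94), miR-708-5p (0.93), miR-29a-3p (0.91), miR-3102-3p (0.90) and miR-101c (0.90). Within the 7 libraries, again without removing group means, r was 0.70, 0.75, 0.64, 0.81 and 0.63. Each strand was among the 3 miRNAs most like the other. miR-30c-2-3p had a log2 fold change of -0.29, and miR-29a-3p, which targets collagen transcripts, one of -0.27. miR-133b-3p, a muscle miRNA, was at -0.56 and miR-378a-5p, from an intron of Ppargc1b, at -0.64. miR-582-5p was at 0.17, miR-3102-3p at -0.42 and miR-101c at -0.29. In edgeR's test the adjusted p of these 7 was 0.64 or above.

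The relatives of miR-708 had log2 fold changes between -0.19 and 0.23. miR-28a-5p, which has the same seed, was at 344, 330, 372, 314 and 318 CPM in control replicates 1 to 5 and at 291, 330, 306, 355 and 306 CPM in knockout replicates 1 to 5. The groups overlapped, and the 3 controls that were high for miR-708 did not stand apart. Controls averaged 336 ± 23.4 CPM and knockouts 317 ± 25.1 CPM (SD, n = 5 each). Its log2 fold change was -0.08, with a 95% interval from -0.33 to 0.17 (edgeR adjusted p = 0.74), and it turned to 0.02 when scaled by library totals only. miR-28a-5p was thus 21.4 times as abundant as miR-708-5p in controls and 41.4 times in knockouts as a ratio of CPM. Whether the 2 sequences were captured equally well was not tested. The other strand, miR-28a-3p, was at 133 ± 17.5 and 126 ± 7.77 CPM. miR-28c was rare, at 1.77 ± 0.40 and 2.07 ± 0.75 CPM. miR-151-5p and miR-151-3p, strands of a hairpin whose 5p strand resembles miR-28a-5p, were at 521 ± 26.1 and 676 ± 47.9 CPM in controls and at 458 ± 63.4 and 618 ± 71.3 CPM in knockouts. Of the 5 relatives tested, 0 passed edgeR's test in either direction (0% of all miRNAs passed). An unadjusted p under 0.05 in that test was seen for 0 of the 5, against 6.35% of all miRNAs. Of the 5, 4 had a negative log2 fold change, against 46.8% of all miRNAs, with a median of -0.08. miR-28b of that list was not analysed here.

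Other miRNAs linked to what miR-708 is known for were read from the same fit. Over all 457 miRNAs of that fit, 46.8% had a negative log2 fold change, with a median of 0.03. Of these 457, 0% passed edgeR's test and 6.35% had an unadjusted p under 0.05. Of 13 miRNAs linked to endoplasmic reticulum stress, 10 were tested, 4 of them higher and 6 lower on average in knockout, and 0 passed in edgeR's test (median log2 fold change -0.03, 0 at an unadjusted p under 0.05). Among them miR-30c-2-3p, known to limit the stress factor XBP1, averaged 167 ± 28.5 CPM over controls and 137 ± 19.2 CPM over knockouts. miR-106b-5p was at 596 ± 90.0 and 522 ± 63.1 CPM, and miR-199a-5p at 708 ± 404 and 926 ± 347 CPM. Of 13 miRNAs linked to more proliferation of cardiomyocytes, 7 were tested, 4 of them higher and 3 lower on average (median 0.01), and 0 passed in edgeR's test, with 0 at an unadjusted p under 0.05. miR-199a-3p averaged 13638 ± 6176 CPM over controls and 17891 ± 4935 CPM over knockouts, miR-204-5p at 37.6 ± 10.3 and 31.5 ± 9.55 CPM, and miR-92a-3p at 93.8 ± 16.3 and 85.3 ± 11.2 CPM. Of 9 miRNAs linked to less proliferation, all 9 were tested, 3 of them higher and 6 lower on average (median -0.12), and 0 passed in edgeR's test, with 1 at an unadjusted p under 0.05. That one was miR-133a-3p, with a log2 fold change of -0.46 (edgeR adjusted p = 0.64). Next to it miR-29a-3p was at 14152 ± 2356 and 11706 ± 1451 CPM, and miR-15a-5p at 468 ± 70.3 and 408 ± 56.0 CPM. Some of these lists share members with the marker lists.

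The log2 fold change of both strands was negative in each setting run. With 1 library left out, that of miR-708-5p ranged from -1.22 without control replicate 2 to -0.78 without control replicate 5. That of miR-708-3p ranged from -1.35 without control replicate 2 to -0.86 without control replicate 3. Only with the component of all log2 levels in the fit did either move by more than 1.5 times, toward 0, as given above. Each setting reused the contrast and the libraries that chose miR-708-5p, so the shared sign is no separate support for a difference.

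**Figure D5:**
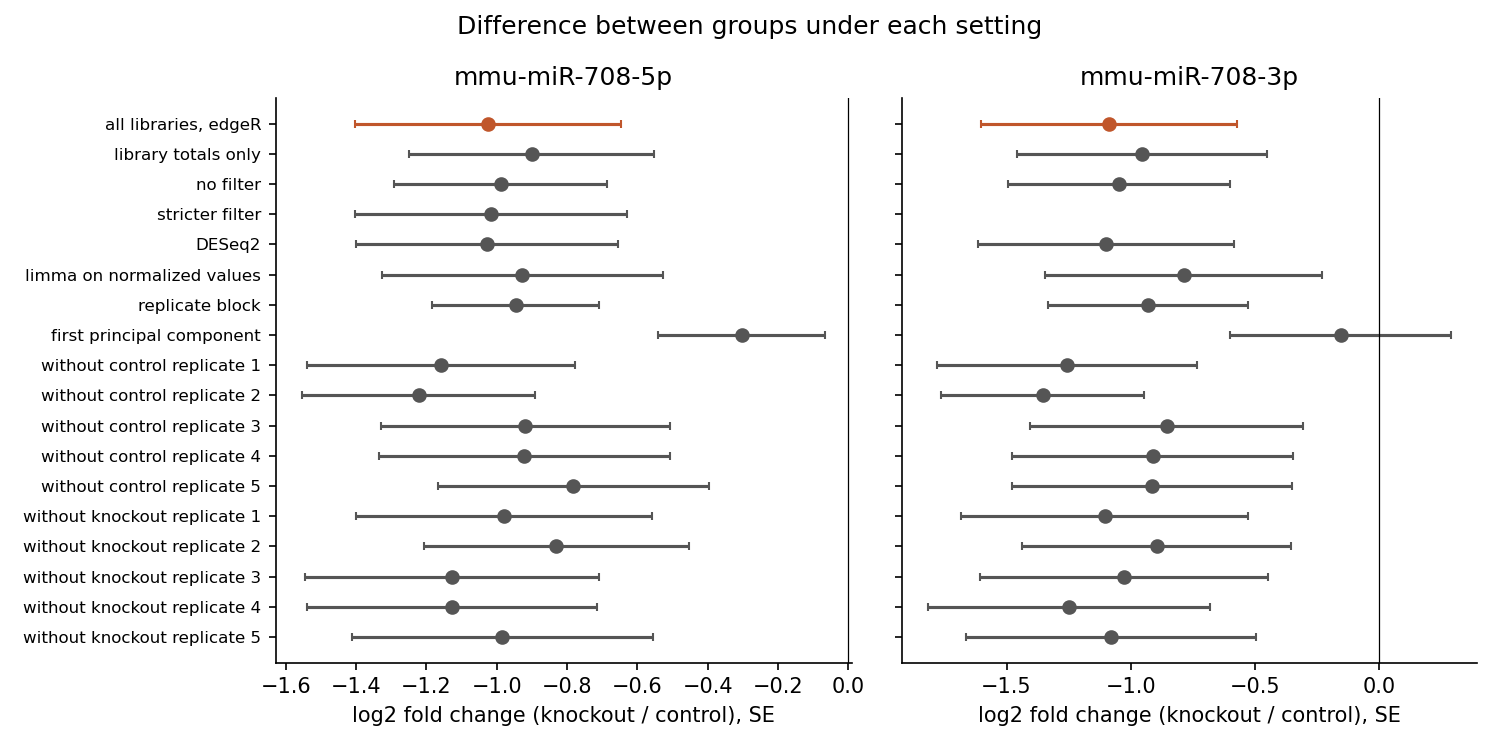
Log2 fold change of miR-708-5p (left panel) and miR-708-3p (right panel), knockout over control, under each setting, with bars of ± 1 SE. The first row uses all libraries with edgeR. All points lie below 0, from -1.22 to -0.30 for 5p and from -1.35 to -0.16 for 3p, and the 3p strand has no value under the stricter filter.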

How the data were processed

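Per the labels' protocols, the 10 small RNA libraries were prepared from frozen heart RNA with a NEXTflex kit. The authors deposited raw read counts per mature miRNA, and a second table of linear signal values. Within a library, count over signal was 1 constant factor, which matched DESeq2's size factor within a relative 1e-09. Cutadapt 1.10, STAR, Bowtie, DESeq2 and GRCm38 stand in the submitters' processing notes with no role. How multiply matching reads were counted, and whether molecular identifiers were used, is not stated there.

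Knockout was compared with control on the counts by edgeR 4.0.16 (R 4.3.3): filterByExpr, TMM factors, quasi-likelihood test with a genotype term alone, and p-values adjusted by Benjamini-Hochberg over 457 miRNAs. DESeq2 1.42.0 and limma 3.58.1 (on log2 of the deposited signal plus 1) were alternatives. Log2 CPM used a prior count of 2, and arm ratios a pseudocount of 0.5 counts. Fits were tested on simulated data in which each miRNA was drawn independently. That simulation held no component shared between miRNAs, so it does not cover the split among the controls. Each p-value judges a group difference against the spread between libraries. The labels do not say that a library is 1 animal, so this spread may be technical. Between libraries of the same group, counts always differed by more than sampling noise (chi-square per degree of freedom at least 124). The replicate numbers 1 to 5 occur in both groups with no stated meaning and were not taken to pair libraries. The planned correlation over 10 libraries was replaced by one over 7, because control replicates 3, 4 and 5 had the highest levels of both strands. It is given with no test.

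The members and all lists were chosen with earlier results of these data known. Named miRNAs were the 2 strands, those sharing a seed, the miR-28 and miR-151 strands, up to 3 members per list with the smallest p, and the 5 most like each strand. miR-700-3p and miR-101a were named after their values were seen. Lists were stress, more and less proliferation, and markers of heart muscle, fibroblasts, endothelium, smooth muscle, leukocytes, erythroid cells and other organs. RefSeq sequences matched 951 of 1139 miRNAs by name.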

Additional observations from a re-analysis of the deposited data

Results flagged for a closer look

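Over 23 measures in 2 groups each (46 groups of 5 libraries), a library was marked where the gap to its nearest neighbour, divided by the range of the group, was above 0.71. This happened in 3 groups, where chance alone gives about 1 in 20, or 2.3. Knockout replicate 3 had a log2 ratio of miR-708-5p to miR-708-3p of 2.77, against 1.96 to 2.18 in the other knockouts (share 0.729). The miR-151-5p level of knockout replicate 4 was 566 CPM, where the others had 408 to 453 CPM (0.716). The miR-28a-3p level of knockout replicate 1 was 113 CPM, where the others had 128 to 133 CPM (0.734). The levels of the 2 miR-708 strands had no such library in either group. Among the controls, 3 libraries were high together.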

How the results depend on the processing

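The count of 0 miRNAs past the threshold, over all miRNAs and in the fixed lists, did not change in any of 17 other fits. The number at an unadjusted p under 0.05 was 29 of 457, and 102 of 1105 without a filter, 45 of 1105 with DESeq2, 14 with library totals only, 72 with the replicate block, 7 with the component, and 6 to 84 with 1 library left out. Left out singly, control replicate 1 gave 84, knockout replicate 4 65, control replicates 3, 4 and 5 16, 10 and 6, and knockout replicates 1, 2 and 5 8, 13 and 18. The replicate block gave a log2 fold change of -0.95 for miR-708-5p and -0.93 for miR-708-3p and changed no call. Same-number pairs correlated from -0.12 to 0.45 in their deviations. For 4 of the 10 libraries the closest library of the other group had the same number. Whether the numbers pair libraries was not tested, and the labels do not say so. Log2 fold changes turned with library totals only for miR-28a-5p (to 0.016) and miR-28a-3p (0.045). With the component they turned for miR-101c (0.42), miR-199a-5p (-0.17) and miR-204-5p (0.074). With 1 library left out, they ranged from -0.48 to 0.051 for miR-101c, from -0.096 to 0.021 for miR-28a-3p and from -0.14 to 0.49 for miR-582-5p. The log2 fold change of miR-582-5p, 0.17, also moved to 0.97 with limma, 0.69 with the replicate block and 1.49 with the component. None of these passed the test, and the cause was not tested. The 3p strand had the lower counts: the stricter filter, 10 counts in every library, removed it.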
